A study of Mus musculus with 6 samples.

Results

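The transcripts described here are 35 genes of glycolysis and of the response to low oxygen, chosen by name from the 23194 genes of the deposited table. They comprise 25 genes that carry glucose, turn it into pyruvate and lactate, or route pyruvate, and 10 genes of the hypoxia-inducible factor (HIF) pathway. All 35 symbols were found, each on 1 row, and all 35 passed the filter on low counts. The RNA came from the left lung of wild-type adult animals of C57BL/6, an inbred mouse strain. In 3 injured lungs the left pulmonary artery had been tied for 4 h, after which blood flow was restored for 24 h. The other 3 lungs came from naive mice, for which no operation is described, so surgery and ischemia cannot be told apart. The tissue was stored in RNAlater, an RNA-stabilising solution. Levels are given as CPM, a count scaled to the size of its library, for comparing lungs, and as the authors' FPKM, which also divides by gene length, for comparing genes.

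Glycolysis splits glucose into pyruvate in the cytosol, and lactate dehydrogenase can then turn pyruvate into lactate, which monocarboxylate transporters carry across the cell membrane. When oxygen is plentiful, prolyl hydroxylases mark the HIF alpha subunits for destruction. When oxygen is scarce the subunits persist, pair with Arnt and bind hypoxia response elements that contain the core ACGTG or GCGTG, which raises many glycolytic genes and a set of genes with other tasks. HIF-independent signals in activated leukocytes also raise glycolysis, and neutrophils depend on it heavily. In the lung, Epas1, the HIF-2 alpha subunit, is known for its high level in endothelium.

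Among these genes 6 rose and 0 fell in injured lungs (edgeR's quasi-likelihood test, adjusted p under 0.05 over all 15486 genes tested). Of all genes tested, 2.16% were called higher and 0.956% lower, 3.11% in either direction. The 6 were Slc16a3, Hk3, Pkm, Eno1, Gapdh and Gpi1, all of them glycolytic, and 0 of the 10 hypoxia genes were called by edgeR, DESeq2 or limma-voom on all 6 lungs, with 2 at an unadjusted p under 0.05. At an unadjusted p under 0.05 there were 17 higher and 0 lower members, against 9.07% and 7.66% of all genes, and limma-voom also called 0 members lower. The levels of 15 members lay higher in every injured than in every naive lung and those of 1 lay lower, against 12.3% and 10.6% of all genes. The median log2 fold change of injured over naive lungs was 0.35 over the 35 members, 0.39 over the 25 glycolysis genes and 0.10 over the 10 hypoxia genes, beside -0.00095 over all genes tested. Under DESeq2, 13 members were called higher, where 3.78% of all genes were, and 0 lower, where 2.69% were. The 13 were the 6 above with Slc2a1, Slc2a3, Pfkl, Aldoa, Pgk1, Pgam1 and Slc16a1. The authors' deposited table lists the same 13 members as higher at an adjusted p under 0.05, beside 3.61% of the genes with an adjusted p there. It rests on the same counts, and the submitters' notes name edgeR and DESeq2, so it is not independent of these calls. With 1 library left out the number called ran from 2, without injured replicate 1, to 9, without injured replicate 2, and it was 3 without naive replicate 2.

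Total counts ran from 18913487 to 34986276 per library. Markers of alveolar type 2 cells, which make surfactant, summed to 29856, 29015 and 31948 CPM in injured replicates 1 to 3 and 28563, 31482 and 28508 CPM in naive replicates 1 to 3, so all 6 samples held lung tissue by this list. The 18 neutrophil markers summed to 1565, 1275 and 890.0 CPM in injured lungs, against 133, 106 and 122 CPM in naive lungs, and 14 of them were called higher. The 15 monocyte and interstitial macrophage markers summed to 669, 725 and 806 CPM in injured lungs and 382, 430.1 and 361 CPM in naive lungs, with 11 called higher. No marker of these 3 lists was at 0 in either group. The 12 clock genes, which follow the time of day, summed to 761, 1044 and 763 CPM in injured and 1444, 1648 and 853 CPM in naive lungs. Naive replicate 3 thus stood apart from the other naive lungs on this list, and without it 5 members were called higher, Slc16a3, Hk3, Gapdh, Pkm and P4ha2. In whole tissue, more cells of a type and more RNA per cell cannot be told apart. The part of these cells and of the clock genes in the values below was not tested.

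**Figure D1:**
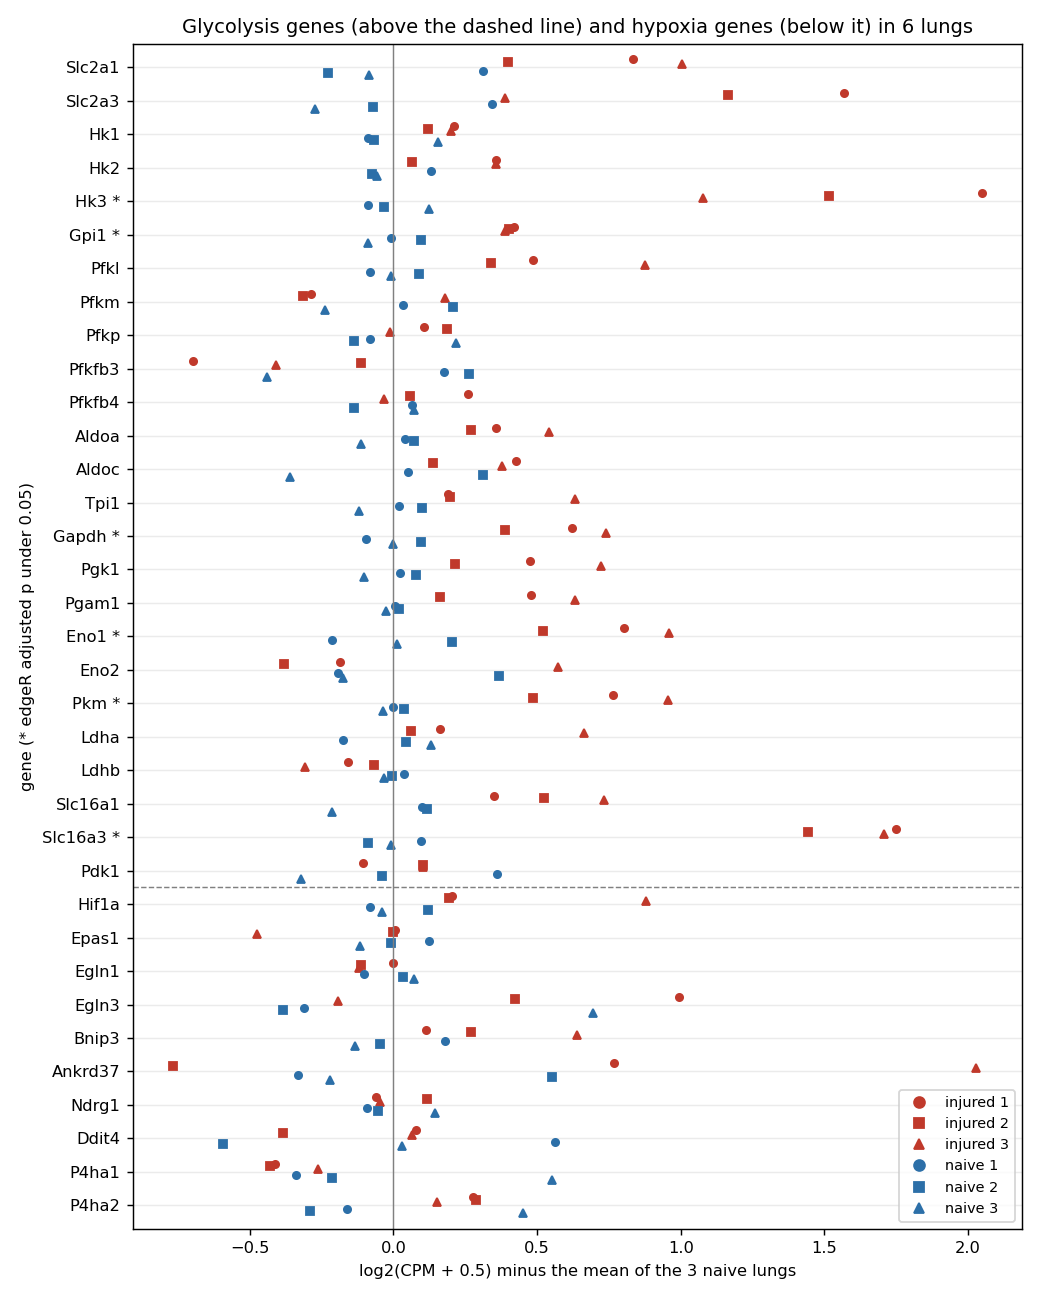
Each point is 1 lung, with the 35 genes down the page and log2(CPM + 0.5) minus the mean of the 3 naive lungs on the horizontal axis. Injured lungs are red and above, naive lungs blue and below, the marker shape gives the replicate, and an asterisk marks an edgeR adjusted p under 0.05. Slc16a3 and Hk3 stand furthest right among the genes whose groups do not overlap, the points of Ankrd37 spread over both ends, and the 10 genes below the dashed line overlap except for Hif1a.

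The lactate exporter Slc16a3 had the lowest adjusted p of the 35 genes. Slc16a3 (MCT4, ENSMUSG00000025161, chromosome 11, 120948480 to 120960868 in the table's mm10 coordinates), which serves highly glycolytic cells, had 36.7, 29.7 and 35.7 CPM in injured replicates 1 to 3 and 11.4, 9.94 and 10.53 CPM in naive replicates 1 to 3. The injured lungs lay close together and far above the naive lungs, a 3.20-fold rise (log2 fold change 1.68 ± 0.12, adjusted p = 0.000165). Here and below, the ± of a log2 fold change is a standard error from the edgeR fit, not an SD between lungs. Its call held in all 6 fits that each dropped 1 library (adjusted p 0.000328 to 0.00247). Slc16a1 (MCT1), the widely expressed paralog that moves lactate in either direction, had 53.7, 60.6 and 70.2 CPM in injured and 45.0, 45.6 and 36.1 CPM in naive lungs. Its groups did not overlap either, but it missed edgeR's threshold (log2 fold change 0.54 ± 0.13, adjusted p = 0.0549), while DESeq2 called it higher. Per length, Slc16a1 remained the more abundant of the pair at 13.97 ± 1.87 FPKM in injured and 9.51 ± 1.32 FPKM in naive lungs (SD, n = 3 each). Slc16a3 made up 36.2% ± 4.28 of the summed FPKM of the pair in injured lungs and 20.5% ± 2.36 in naive lungs.

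The balance between paralogs was taken inside each lung, as the log2 ratio of counts per length after adding 0.5 to each count, so that scaling between lungs cannot affect it. For Slc16a3 over Slc16a1 this ratio was -0.52, -1.0 and -0.94 in injured and -1.96, -2.16 and -1.75 in naive lungs. The ratio was thus 2.20 times as high in injured lungs, without overlap (exact two-sided permutation p = 0.1, adjusted p = 0.217 over 13 pairs). With 3 lungs against 3, 0.1 is the smallest p this test can give, so none of the 13 pairs could pass 0.05. Their levels beside those of the other paralogs are plotted per length.

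The 250 bases before the RefSeq starts of both lactate transporters are shown because edgeR called Slc16a3 and not Slc16a1, while each window holds HIF core letters. Capitals mark ACGTG or GCGTG read on either strand, where neighbouring matches may share letters. The sequences are from RefSeq on GRCm38.p6, chr11:120948817-120949066, plus strand and chr3:104638414-104638663, plus strand, written 5′ to 3′ on the gene's strand. For Slc16a3 the RefSeq start lies downstream of the start in the table, so its window lies inside the gene as the table has it. In the GENCODE M21 annotation that stretch is intronic to the longer transcript, and a shorter transcript begins in its last bases.
Slc16a3: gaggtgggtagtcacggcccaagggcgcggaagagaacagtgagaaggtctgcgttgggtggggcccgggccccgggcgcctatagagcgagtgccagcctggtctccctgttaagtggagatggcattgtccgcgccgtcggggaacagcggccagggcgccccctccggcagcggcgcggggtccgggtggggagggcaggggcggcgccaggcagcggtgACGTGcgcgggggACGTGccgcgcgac
Slc16a1: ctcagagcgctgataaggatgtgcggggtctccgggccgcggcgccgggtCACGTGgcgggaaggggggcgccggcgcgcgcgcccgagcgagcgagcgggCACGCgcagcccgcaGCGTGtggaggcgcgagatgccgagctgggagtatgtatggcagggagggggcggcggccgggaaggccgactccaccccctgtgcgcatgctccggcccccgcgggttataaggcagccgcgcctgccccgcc
In Slc16a3 both matches were ACGTG on the gene's strand, beginning 27 and 14 bases before the RefSeq start. Slc16a1 held ACGTG at 200 and 199 bases before the start, where both strands read it in 1 palindrome, and GCGTG at 149 and 134 bases.

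**Figure D2:**
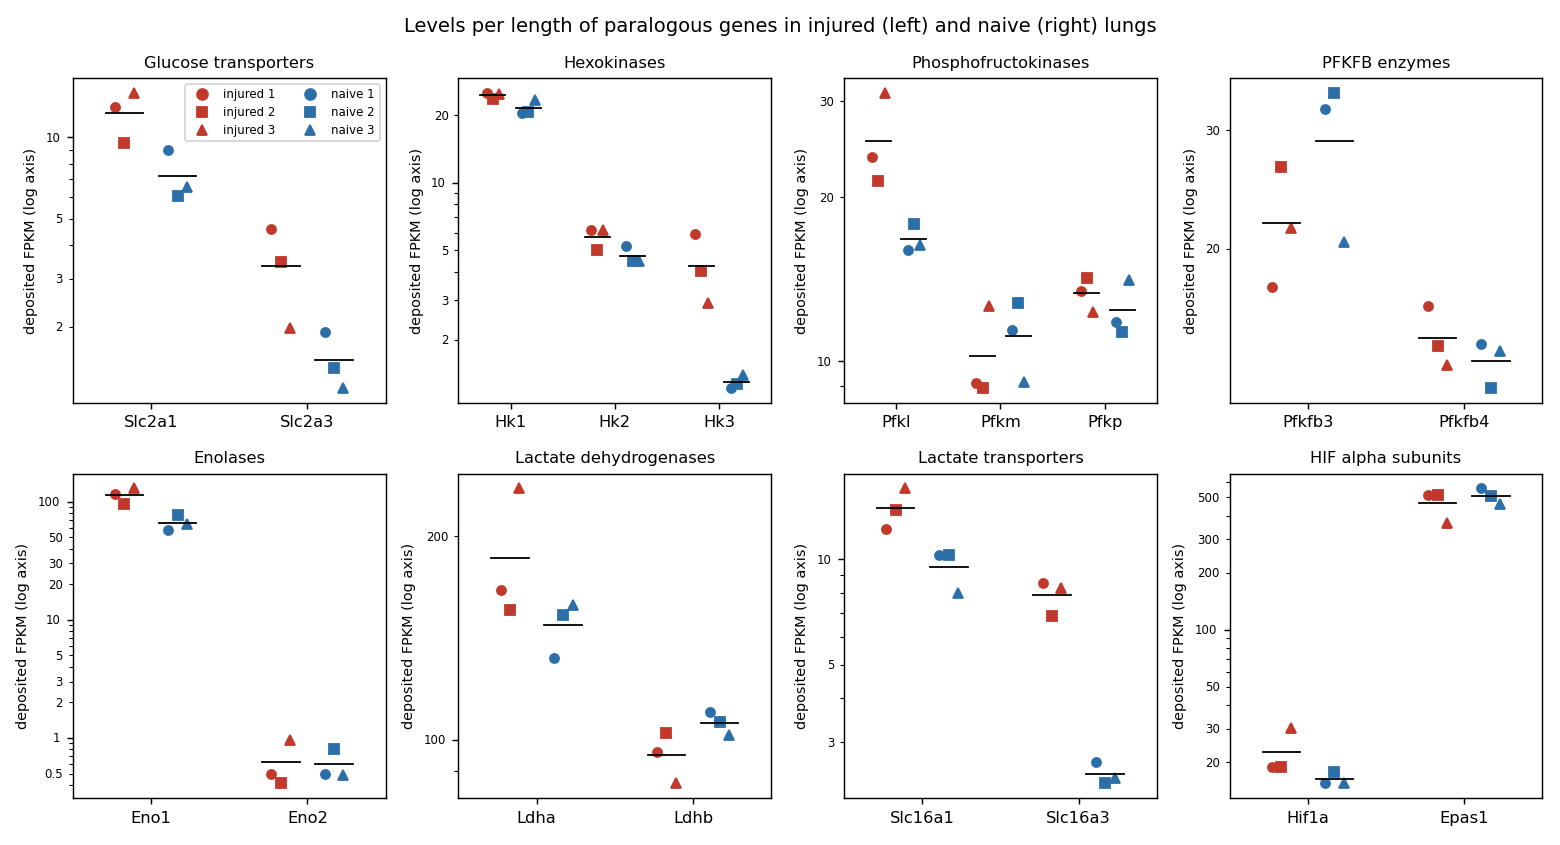
Deposited FPKM on log axes for 8 sets of paralogs, with injured lungs in red on the left and naive lungs in blue on the right of each gene, 1 point per lung and a bar at the mean. Hk3 and Slc16a3 stand out by the distance between groups while remaining below Hk1 and Slc16a1 in level, and Epas1 is far above Hif1a in all 6 lungs.

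Glucose entry is served by Slc2a1 (GLUT1), the basal transporter that HIF also raises, and Slc2a3 (GLUT3), a high-affinity transporter of neurons and leukocytes. Slc2a1 had 33.5, 24.7 and 37.8 CPM in injured and 23.2, 15.8 and 17.5 CPM in naive lungs. Slc2a3 had 28.5, 21.4 and 12.3 CPM in injured and 11.9, 8.83 and 7.60 CPM in naive lungs. Every injured lung lay above every naive lung for both genes, yet neither passed edgeR's test (log2 fold changes 0.76 ± 0.19 and 1.13 ± 0.32, adjusted p = 0.0734 and 0.133). DESeq2 called both higher. The injured lungs ordered in opposite ways. Injured replicate 3 had the highest Slc2a1 and the lowest Slc2a3, so the log2 ratio of Slc2a3 over Slc2a1 was -1.495, -1.46 and -2.88 in injured lungs, against -2.22, -2.10 and -2.46 in naive lungs, and overlapped (exact two-sided permutation p = 0.600). Without injured replicate 3, Slc2a3 was called higher (adjusted p = 0.00906). Slc2a1 was called without injured replicate 2 or naive replicate 1 (the lower adjusted p was 0.0324).

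Hexokinases trap glucose in the cell by phosphorylating it. Hk1, the housekeeping form, was the most abundant per length at 24.5 ± 0.786 FPKM in injured and 21.5 ± 1.70 FPKM in naive lungs (SD, n = 3 each). Hk2, the inducible form of muscle and of many tumours and a HIF target, had 5.75 ± 0.654 FPKM in injured and 4.73 ± 0.443 FPKM in naive lungs. Neither passed the test, with log2 fold changes of 0.17 ± 0.093 (adjusted p = 0.395) and 0.27 ± 0.12 (adjusted p = 0.293). Hk3 (ENSMUSG00000025877, chromosome 13, 55005985 to 55021385), the form expressed in myeloid cells, had 18.8, 12.9 and 9.36 CPM in injured and 3.90, 4.07 and 4.59 CPM in naive lungs. Naive lungs were nearly alike and all 3 injured lungs were higher, a 3.26-fold rise (log2 fold change 1.70 ± 0.25, adjusted p = 0.00745). That call too held in all 6 such fits (adjusted p 0.00124 to 0.0471). Hk3 made up 15.9%, 12.4% and 8.61% of hexokinase FPKM in injured replicates 1 to 3 and 4.54%, 4.81% and 4.76% in naive replicates 1 to 3. Within each lung, Hk3 relative to Hk1 was 2.78 times as high in injured lungs (exact two-sided permutation p = 0.1), whereas Hk2 relative to Hk1 overlapped between groups at 1.06 times (exact p = 0.700).

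The neutrophil and the monocyte and macrophage marker sums given above also lay higher in every injured lung, and their part in the Hk3 and Slc2a3 values was not tested. The window before the Hk3 start is printed as a contrast to the lactate transporters, since it holds 1 core only, ACGTG read on the opposite strand 156 bases before the start (chr13:55021386-55021635, minus strand).
Hk3: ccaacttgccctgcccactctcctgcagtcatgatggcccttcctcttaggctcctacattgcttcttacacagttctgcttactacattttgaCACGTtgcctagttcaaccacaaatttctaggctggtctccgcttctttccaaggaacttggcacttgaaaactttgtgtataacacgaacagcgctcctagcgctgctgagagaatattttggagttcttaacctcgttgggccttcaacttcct

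Phosphoglucose isomerase, the next enzyme, is encoded by Gpi1 (ENSMUSG00000036427, chromosome 7, 34202122 to 34230289) alone. Gpi1 had 196, 193 and 192 CPM in injured and 145, 156 and 138 CPM in naive lungs, with the injured lungs close together. The rise was 1.32-fold (log2 fold change 0.40 ± 0.083, adjusted p = 0.0308). Its call was lost with any 1 of the 6 libraries left out (adjusted p 0.0528 to 0.123). An annotated gene on the opposite strand overlaps 741 of its 6452 exon bases, and the strand setting of the counting is not given in the sources used here.

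Phosphofructokinase commits sugar to glycolysis and has liver, muscle and platelet forms, Pfkl, Pfkm and Pfkp. Pfkl had 88.0, 79.5 and 115 CPM in injured and 59.3, 66.8 and 62.3 CPM in naive lungs. The groups did not overlap, and edgeR's adjusted p lay just above the threshold (log2 fold change 0.59 ± 0.13, adjusted p = 0.0506). DESeq2 called Pfkl higher. Pfkm had 26.1, 25.5 and 36.2 CPM in injured and 32.6, 36.9 and 26.96 CPM in naive lungs, and Pfkp had 62.4, 65.9 and 57.3 CPM in injured and 54.7, 52.6 and 67.3 CPM in naive lungs. Both overlapped between groups (log2 fold changes -0.13 ± 0.16 and 0.087 ± 0.11, adjusted p = 0.758 and 0.771). As a share of the 3 forms per length, Pfkl was 51.6% ± 3.69 in injured and 41.6% ± 0.946 in naive lungs (SD, n = 3 each). Pfkm relative to Pfkl was 0.610 times as high in injured lungs, without overlap, at log2 ratios of -1.38, -1.26 and -1.30 against -0.49, -0.48 and -0.84 in naive lungs (exact two-sided permutation p = 0.1). Heart and skeletal muscle markers summed to 337, 143 and 659.9 CPM in injured and 488, 882 and 569 CPM in naive lungs, highest in naive replicate 2 and lowest in injured replicate 2, as Pfkm was. All 10 tested of them had a fold change below 1 with 0 called, and their part in the Pfkm values was not tested.

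Pfkfb3 and Pfkfb4 encode enzymes that set the level of the sugar phosphate that activates phosphofructokinase, and both are HIF targets in many cells. Pfkfb3 had 88.5, 133 and 108.4 CPM in injured lungs and 163, 173 and 106 CPM in naive lungs. Naive replicate 3 fell among the injured lungs while naive replicates 1 and 2 lay above them (log2 fold change -0.42 ± 0.22, adjusted p = 0.398). Without naive replicate 3, the lung that stood apart on the clock genes, its log2 fold change was -0.61 (adjusted p = 0.0881). Pfkfb4 overlapped too, at 48.3 ± 5.12 CPM in injured and 45.1 ± 3.71 CPM in naive lungs (SD, n = 3 each; log2 fold change 0.095 ± 0.11, adjusted p = 0.728). Neither inducible regulator was called in any of the alternative fits.

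The steps after phosphofructokinase held the most abundant glycolytic genes. Gapdh led per length at 472 ± 56.5 FPKM in injured and 311 ± 20.5 FPKM in naive lungs, and Aldoa followed at 357 ± 34.5 FPKM in injured and 269.6 ± 21.9 FPKM in naive lungs (SD, n = 3 each). Aldoa, the main aldolase, had 537, 505 and 610.1 CPM in injured and 431, 441 and 387 CPM in naive lungs, with no overlap but no call by edgeR (log2 fold change 0.39 ± 0.10, adjusted p = 0.0812). DESeq2 called Aldoa higher. Aldoc, the brain form, made up 1.05% ± 0.0952 of aldolase FPKM in injured and 1.10% ± 0.197 in naive lungs (SD, n = 3 each), and its levels overlapped (log2 fold change 0.32 ± 0.20, adjusted p = 0.477). Tpi1, which interconverts the triose phosphates, had 131, 131 and 178 CPM in injured and 116, 123 and 105 CPM in naive lungs. Pgk1, which makes ATP, had 133, 111 and 158 CPM in injured and 97.0, 100.8 and 89.0 CPM in naive lungs, and the mutase Pgam1 had 70.3, 56.3 and 78.2 CPM in injured and 50.5, 51.0 and 49.4 CPM in naive lungs. All 3 lay higher in every injured lung than in every naive lung, widest in injured replicate 3, without passing edgeR's test. The log2 fold changes of Tpi1, Pgk1 and Pgam1 were 0.35 ± 0.13, 0.49 ± 0.13 and 0.44 ± 0.12, with edgeR adjusted p of 0.204, 0.0770 and 0.0872. DESeq2 called Pgk1 and Pgam1 higher.

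Gapdh, the dehydrogenase that is often used as a reference gene, rose. It had 681, 581 and 741 CPM in injured and 415, 474 and 442 CPM in naive lungs, 1.505-fold (log2 fold change 0.59 ± 0.11, adjusted p = 0.0222; ENSMUSG00000057666, chromosome 6, 125161853 to 125166467). Injured replicate 2, the lowest of its group, was still above the highest naive lung. The call was lost without injured replicate 1 or naive replicate 1 or 2 (adjusted p up to 0.0919). Of 79 annotated near-identical copies of Gapdh elsewhere in the genome, 40 have rows in the table, and their summed counts were 0.706% of those of Gapdh. How reads that fit several places were counted is not given. The counts of the copies therefore cannot show how many reads were shared or left out.

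Eno1, the general enolase, also rose, with 234, 193 and 261 CPM in injured and 116, 155 and 135 CPM in naive lungs (log2 fold change 0.76 ± 0.14, adjusted p = 0.0198; ENSMUSG00000063524, chromosome 4, 150236721 to 150248879). Eno2, the neuronal form, had 28, 26 and 64 counts in injured replicates 1 to 3 and 41, 43 and 48 counts in naive replicates 1 to 3, and no difference was detectable at this depth (log2 fold change 0.076 ± 0.39, adjusted p = 0.952). Pkm, pyruvate kinase of all tissues but liver and red cells, rose 1.68-fold. Pkm had 585, 482 and 669 CPM in injured and 344, 354 and 336 CPM in naive lungs (log2 fold change 0.75 ± 0.12, adjusted p = 0.0113; ENSMUSG00000032294, chromosome 9, 59656368 to 59679375). Gene counts do not separate the M1 and M2 splice forms of Pkm, and an annotated gene on the same strand, Gm49759, overlaps 767 of its 5001 exon bases. Calls were lost for Eno1 without injured replicate 1 or naive replicate 1 or 3 (adjusted p up to 0.0870) and for Pkm without injured replicate 1 or naive replicate 2 (adjusted p up to 0.0601).

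Injured replicate 3 was the highest injured lung for 11 of the 18 enzyme and Pfkfb genes, and injured replicate 2 for 2. The mean of log2(CPM + 0.5) over these 18 genes, relative to the naive mean, was 0.38, 0.24 and 0.49 in injured replicates 1 to 3 and -0.017, 0.083 and -0.066 in naive replicates 1 to 3.

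**Figure D3:**
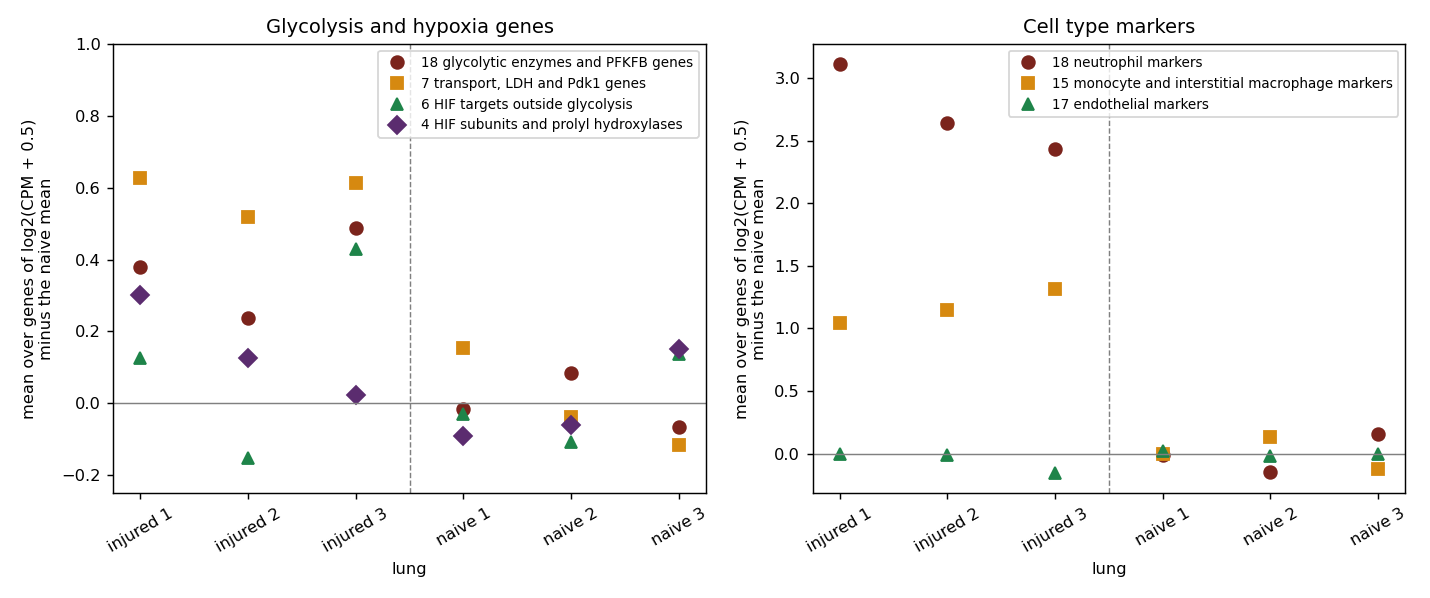
Each point is the mean over a gene group of log2(CPM + 0.5) minus the naive mean, for 3 injured lungs on the left of the dashed line and 3 naive lungs on the right. The enzyme and transport groups are higher in every injured lung than in every naive lung, the HIF targets outside glycolysis are not, and the second panel has a larger scale for markers of neutrophils, monocytes with interstitial macrophages, and endothelium.

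Pyruvate can become lactate or enter mitochondria. Ldha, the subunit that favours lactate and a classic HIF target, had 292, 273 and 414 CPM in injured and 232, 269.7 and 286 CPM in naive lungs. Injured replicate 3 stood well above the naive lungs, injured replicate 2 lay among them, and the gene was not called (log2 fold change 0.31 ± 0.16, adjusted p = 0.376). Ldhb, the heart-type subunit, had 124, 133 and 112 CPM in injured and 142, 138 and 136 CPM in naive lungs. It was the 1 member that lay lower in every injured lung, though without passing the test (log2 fold change -0.17 ± 0.089, adjusted p = 0.369). The share of Ldha in lactate dehydrogenase FPKM was 65.6% ± 6.72 in injured and 58.2% ± 3.25 in naive lungs, and overlapped. Pdk1, a HIF-induced kinase that inhibits pyruvate dehydrogenase, overlapped between groups, at 39.0 ± 3.19 CPM in injured and 38.8 ± 9.45 CPM in naive lungs (SD, n = 3 each; log2 fold change 0.0092 ± 0.16, adjusted p = 0.987).

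**Figure D4:**
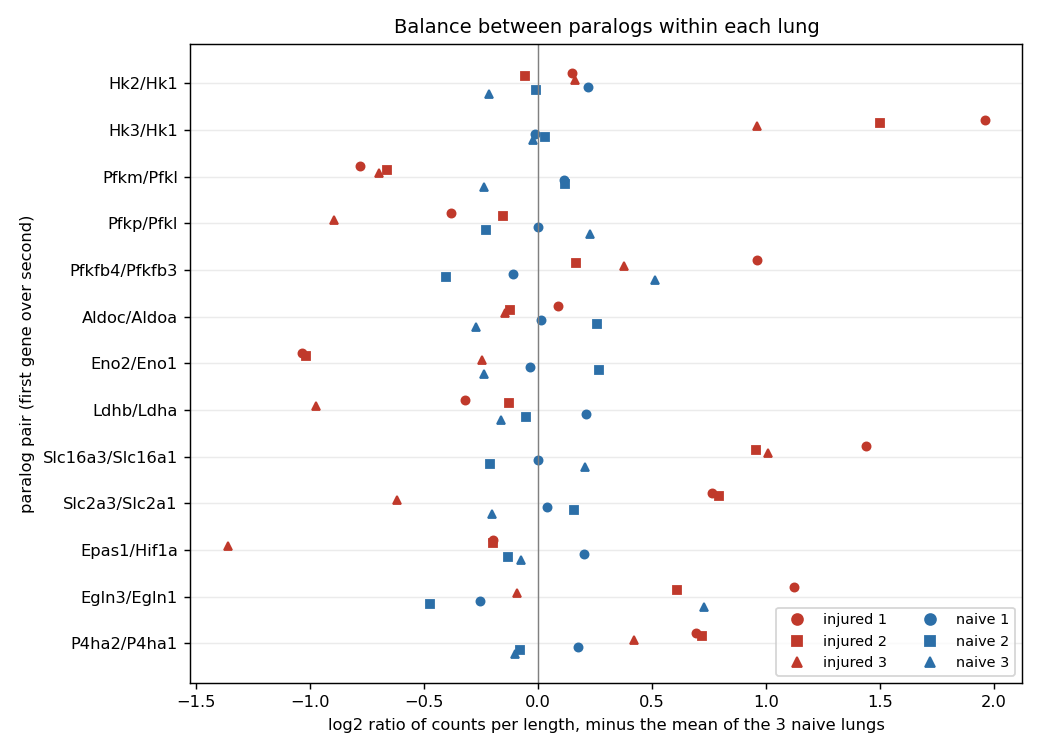
For 13 pairs of paralogs down the page, each point is the log2 ratio of counts per length in 1 lung minus the mean of the 3 naive lungs, with injured lungs in red above and naive lungs in blue below. Hk3/Hk1, Slc16a3/Slc16a1 and P4ha2/P4ha1 lie to the right without overlap, and Pfkm/Pfkl, Eno2/Eno1 and Epas1/Hif1a to the left.

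The 4 genes of HIF subunits and their hydroxylases were not called, where 3.11% of all genes were. Hif1a, the subunit that drives most glycolytic HIF targets, had 88.7, 88.0 and 142 CPM in injured and 72.8, 83.8 and 74.8 CPM in naive lungs. The injured lungs were all above the naive ones, but replicates 1 and 2 only narrowly so (log2 fold change 0.46 ± 0.19, adjusted p = 0.264). Epas1 had 2716, 2701 and 1947 CPM in injured and 2944, 2689 and 2493 CPM in naive lungs, with injured replicate 3 the lowest of the 6 (log2 fold change -0.14 ± 0.14, adjusted p = 0.687). That lung also had the lowest summed endothelial markers, 9287, 9481 and 8305 CPM in injured replicates 1 to 3 and 9416, 9129.7 and 9117 CPM in naive replicates 1 to 3, and their part was not tested. Per length Epas1 exceeded Hif1a in every lung, at 465 ± 83.8 against 22.6 ± 6.55 FPKM in injured and 508 ± 49.7 against 16.2 ± 1.29 FPKM in naive lungs (SD, n = 3 each). The Epas1 over Hif1a ratio was 0.668 times as high in injured lungs (exact two-sided permutation p = 0.1), but log2 ratios of 4.77, 4.77 and 3.61 in injured and 5.17, 4.84 and 4.89 in naive lungs set injured replicate 3 apart, and the difference of -0.58 was -0.20 without that lung.

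Egln1, the main HIF prolyl hydroxylase, lay at 106 ± 5.05 CPM in injured and 112 ± 6.94 CPM in naive lungs (SD, n = 3 each; log2 fold change -0.079 ± 0.086, adjusted p = 0.718). Egln3, a hydroxylase that is itself HIF-induced, was scarce at 6.30, 4.07 and 2.49 CPM in injured and 2.25, 2.11 and 5.03 CPM in naive lungs (log2 fold change 0.43 ± 0.43, adjusted p = 0.688). Naive replicate 3 lay inside the injured range, so no difference was detectable.

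HIF targets outside glycolysis gave 0 calls among 6 by edgeR, DESeq2 and limma-voom on all 6 lungs, with 1 at an unadjusted p under 0.05, Bnip3. Of all genes tested, edgeR called 3.11%, and 16.7% had an unadjusted p under 0.05. With 6 genes these counts do not set the list apart from all genes. Without naive replicate 3, P4ha2 was called higher by edgeR. Bnip3, a mitochondrial protein that promotes mitophagy, had 70.7, 78.9 and 102 CPM in injured and 74.2, 63.3 and 59.6 CPM in naive lungs (log2 fold change 0.35 ± 0.14, adjusted p = 0.254). Injured replicate 1 lay inside the naive range. Ankrd37, a small ankyrin-repeat protein induced by hypoxia, had 45, 10 and 143 counts in injured and 23, 35 and 30 counts in naive lungs. Injured replicate 2 was the lowest and injured replicate 3 the highest of the 6, so its log2 fold change of 1.36 ± 0.86 (adjusted p = 0.504) was 0.22 without injured replicate 3.

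Ndrg1, a stress-responsive protein, lay at 26.7 ± 1.88 CPM in injured and 26.6 ± 2.45 CPM in naive lungs (SD, n = 3 each), with a log2 fold change of 0.00023 ± 0.11 whose sign turned with the scaling. Ddit4, an inhibitor of mTORC1 that also responds to glucocorticoids, had 46.9, 33.8 and 46.4 CPM in injured and 65.8, 29.2 and 45.3 CPM in naive lungs, its naive lungs enclosing all injured ones (log2 fold change -0.15 ± 0.30, adjusted p = 0.872). Glucocorticoid-responsive genes likewise spread among naive lungs, at 1463, 693 and 1453 CPM summed, against 779.7, 649 and 877 CPM in injured lungs. P4ha1 and P4ha2 are catalytic subunits of collagen prolyl hydroxylase. P4ha1 had 92.8, 91.8 and 103 CPM in injured and 97.7, 106.7 and 182 CPM in naive lungs. P4ha2 had 47.5, 47.9 and 43.6 CPM in injured and 34.9, 31.9 and 53.7 CPM in naive lungs. Naive replicate 3 was the highest of the 6 for both, and neither passed the test (log2 fold changes -0.43 ± 0.23 and 0.20 ± 0.18, adjusted p = 0.427 and 0.656). P4ha2 was called when naive replicate 3 was dropped, at a log2 fold change of 0.46 (adjusted p = 0.0437). Taken inside each lung, where that shared spread cancels, P4ha2 relative to P4ha1 was 1.53 times as high in injured lungs, with log2 ratios of -0.56, -0.54 and -0.84 against -1.08, -1.34 and -1.36 in naive lungs and no overlap (exact two-sided permutation p = 0.1).

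The mean of log2(CPM + 0.5) over the 6 targets relative to naive lungs was 0.13, -0.15 and 0.43 in injured and -0.030, -0.11 and 0.14 in naive lungs. Injured replicate 2 was the lowest of all 6 on this measure. That place rests on Ankrd37, at 10 counts there against 35 in naive replicate 2 and 143 in injured replicate 3. The same measure over the 7 transport, lactate dehydrogenase and Pdk1 genes was 0.52 in injured replicate 2. The Bnip3 window is printed because it holds the most cores of the 4 shown while the gene was not called (chr7:138909507-138909756, minus strand). Its last bases lie inside the gene as the table has it, 138890836 to 138909519.
Bnip3: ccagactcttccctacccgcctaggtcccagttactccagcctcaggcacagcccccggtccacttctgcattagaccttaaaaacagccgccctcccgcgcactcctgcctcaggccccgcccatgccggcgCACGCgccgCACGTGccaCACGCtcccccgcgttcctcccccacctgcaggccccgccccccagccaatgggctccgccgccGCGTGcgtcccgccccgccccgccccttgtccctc
It held ACGTG on both strands of a palindrome, and GCGTG at 117, 99 and 35 bases before the start. Of the 45 windows of the 32 members found in the RefSeq table, 37 held either core, or 82.2%, against 38.6% of all 32851 windows of the same length. The share was 77.8% for the 9 windows of called members and 83.3% for the 36 windows of members not called. The members were chosen by name, HIF targets among them, and the windows of all genes were not matched for base composition. The higher share among members can therefore not be read as a result of these data. A match is a run of letters and not a bound site.

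Across the 13 pairs, 6 ratios did not overlap between groups, 3 higher and 3 lower in injured lungs. Of all single genes, 12.3% lay higher and 10.6% lower without overlap, and no such share was computed for ratios of other pairs. Hk3, Slc16a3, Slc16a1, Pfkl, Eno1 and Hif1a, each in 1 of the 6 pairs, also did not overlap as single genes. Enolase was among the 6 ratios, with Eno2 over Eno1 at -7.84, -7.82 and -7.05 in injured and -6.84, -6.54 and -7.04 in naive lungs on the log2 scale. There injured replicate 3 nearly touched the naive lungs. The ratios of Hk2 to Hk1, Pfkp to Pfkl, Pfkfb4 to Pfkfb3, Aldoc to Aldoa, Ldhb to Ldha, Slc2a3 to Slc2a1 and Egln3 to Egln1 overlapped, with exact two-sided permutation p from 0.2 to 0.7.

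Further genes of these pathways mostly did not pass the test. Of 18 tested among 23 listed other glycolytic and sugar transport genes, 1 rose and 1 fell, against 2.16% and 0.956% of all genes. Slc2a6, a lysosomal hexose transporter of leukocytes, had 9.62, 8.32 and 4.13 CPM in injured and 2.02, 1.90 and 2.54 CPM in naive lungs (log2 fold change 1.76 ± 0.32, adjusted p = 0.0193). Pfkfb2, the heart-type relative of Pfkfb3, had 14.5, 15.7 and 18.2 CPM in injured and 23.6, 21.5 and 26.3 CPM in naive lungs (log2 fold change -0.56 ± 0.13, adjusted p = 0.0468). The call of Slc2a6 was lost without injured replicate 1 or 2 or naive replicate 1 or 2 (adjusted p up to 0.0937), and that of Pfkfb2 with any 1 library left out except injured replicate 3 (adjusted p up to 0.177). The median log2 fold change of the 18 was -0.019.

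Of 17 tested genes of pyruvate entry and gluconeogenesis, none was called by edgeR, DESeq2 or limma-voom, with 2 at an unadjusted p under 0.05 and a median of 0.056. Among its most abundant members, Pdha1, a subunit of pyruvate dehydrogenase, had a log2 fold change of -0.0085 ± 0.099 and the pyruvate carboxylase Pcx 0.34 ± 0.14. The 9 HIF regulators, which include the partner subunit Arnt at -0.14 ± 0.10 and the inhibitor Hif1an at 0.12 ± 0.11, also gave 0 calls by all 3 tools and 0 at an unadjusted p under 0.05. Over all genes tested, edgeR called 3.11%, and 16.7% had an unadjusted p under 0.05.

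Among 30 other HIF targets 1 rose, where 2.16% of all genes did. It was Nos2, the inducible nitric oxide synthase, which inflammatory signals also raise. Nos2 had 10.8, 8.41 and 15.2 CPM in injured and 3.90, 5.60 and 6.17 CPM in naive lungs (log2 fold change 1.14 ± 0.25, adjusted p = 0.0458). Its call was lost with any 1 library left out except injured replicate 2 (adjusted p up to 0.148). Of the 30, 8 lay higher and 2 lower in every injured lung than in every naive lung, against 12.3% and 10.6% of all genes. At an unadjusted p under 0.05 by edgeR, 8 were higher and 2 lower, against 9.07% and 7.66% of all genes. The angiogenic factor Vegfa, picked here after its values were seen, had 642, 475 and 363 CPM in injured and 799.6, 698 and 692 CPM in naive lungs and was not called (log2 fold change -0.56 ± 0.19, adjusted p = 0.182). Other uncalled genes of this list had a lower edgeR adjusted p than Vegfa. Hilpda, Plin2 and Tfrc were higher in injured lungs, with log2 fold changes of 0.49, 0.48 and 0.36 (edgeR adjusted p = 0.0824, 0.0912 and 0.0899). Plod2 was lower, at -0.48 (edgeR adjusted p = 0.0518). DESeq2 called 4 of the 30 higher and 2 lower, against 3.78% and 2.69% of all genes. The median over the 30 was 0.057.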

How the data were processed

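Per the labels' protocols, the NEBNext Ultra II RNA kit was used and reads were paired, of 150 bases. The protocol text mentions 4 h or 5 h of ligation, and the titles give 4 h. The submitters' processing notes list the aligner STAR, the counter HTSeq, STAR-Fusion, edgeR and DESeq2, and the build mm10. Their versions and settings, and whether counting used strand, are not given. The deposited table holds raw read counts. The authors' deposited FPKM followed from counts, gene length and column totals within a relative tolerance of 1e-06. The deposited normalized signal equalled the counts over 1 factor per library within the same tolerance. The authors' deposited log2 fold changes and adjusted p-values were used only where named.

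Counts were filtered with filterByExpr, scaled by TMM and compared by edgeR's robust quasi-likelihood test (R 4.3.3, limma 3.58.1, edgeR 4.0.16), fitted on group alone, and p-values were adjusted over all genes by Benjamini-Hochberg. The standard error of a log2 fold change was taken as its absolute value over the square root of the test's F statistic. Each lung was taken as 1 mouse. The labels do not say that they are separate animals, so p-values measure the spread between these samples. Paralog ratios were compared by exact permutation tests (scipy 1.17.1). Alternatives were DESeq2 1.42.0, limma-voom, other scalings and filters, a replicate block, and each library left out. The members and lists were chosen with earlier results of these data known. All 35 members are named. Of each companion list the called genes were named, up to the 5 with the largest change, or otherwise the 2 most abundant. Cell type, clock and glucocorticoid lists with no call are given by counts only. Vegfa, Hilpda, Plin2, Tfrc, Plod2 and Eno3 were added after their values were seen. Of 223 symbols in 18 companion lists 3 were absent from the table.

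On 1 draw of simulated counts for this comparison, in which 200 of 15486 genes were changed, edgeR called 63 of the 100 with a true log2 change of 1 and 97 of the 100 with a true change of 2. It made 180 calls, 20 on unchanged genes (11.1%, over the intended rate), which bears on genes close to the threshold. On the same draw DESeq2 made 204 calls, 35 on unchanged genes (17.2%). That bears on the members that DESeq2 called and edgeR did not. Members with near-identical copies were found with BLAST 2.17.0 (95% identity over 150 bases of GENCODE M21 transcripts). Such copies existed for 10 members, 7 of them with copies in the table, whose counts came to at most 0.747% of the member's. This does not bound the reads shared with copies or left out of the counts. In that annotation 13 members share exon bases with a gene on the opposite strand, among them the called Hk3 (34 bases), Gapdh (68) and Gpi1 (741), and 3 with a gene on the same strand, Pkm, Pfkm and Hif1a, and shared reads cannot be told apart here.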

Additional observations from a re-analysis of the deposited data

How the results depend on the processing

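Slc16a3 and Hk3 were called in the main comparison and under every alternative listed here, including each of the 6 libraries left out. The number of members called higher was 6, and it was also 6 with DESeq2's size factors, with a filter of 1 CPM in 3 samples and with limma-voom, where in each case the same 6 genes were called. It was 7 with library size alone, 12 with no filter, 13 by DESeq2 and 2 to 9 with 1 library left out. The deviations of same-numbered lungs from their group means had correlations of 0.095, -0.084 and 0.18. Injured replicates 1 and 3 correlated best with their own number and injured replicate 2 did not, which cannot settle pairing with 3 lungs per group. The numbers were not taken as pairs, and with the replicate number as a block the number of members called higher was 9. No member was called lower under any of these. Over all genes the counts of 334 higher and 148 lower were 585 and 417 by DESeq2, and 269 lower with no filter. With 1 library left out they ran from 145 to 333 higher and 48 to 146 lower. Among other glycolytic genes limma-voom called 0 higher and 0 lower, and leaving out 1 library gave 0 to 1 higher and 0 to 1 lower. Other HIF targets called higher numbered 3 with no filter, 4 by DESeq2, 4 with the replicate block, 0 by limma-voom and 0 to 1 with 1 library left out. Those called lower numbered 1 with library size alone, 1 with no filter, 2 by DESeq2, 1 with the replicate block and 0 to 1 with 1 library left out. The sign of 4 uncalled members turned with a library left out, over ranges of -0.39 to 0.33 for Eno2, -0.15 to 0.21 for Pdk1, -0.060 to 0.073 for Ndrg1 and -0.39 to 0.17 for Ddit4. That of Ndrg1 also turned with DESeq2's size factors (-0.0056), no filter (-0.00017), the 1 CPM filter (-0.00030), DESeq2 (-0.0061) and limma-voom (-0.0035). Of the 13 paralog ratios, those of Hk2 to Hk1 (-0.020 to 0.20) and Aldoc to Aldoa (-0.19 to 0.070) turned sign with 1 library left out. The other 11 kept theirs there, and all 13 did with a pseudocount of 5, with deposited FPKM and when same-numbered lungs were paired by sign flips, whose smallest p is 0.25. For Slc16a3 over Slc16a1 the paired difference was 1.14. The cause of these changes was not tested. Low counts of Eno2, Ankrd37 and Egln3 limit what can be seen of them.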

Other observations

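Among neutrophil markers the 5 largest called rises were those of Ly6g, a surface antigen of mouse neutrophils, at a log2 fold change of 4.91 ± 0.61, the calprotectin subunits S100a8 (4.34 ± 0.54) and S100a9 (4.25 ± 0.40), Retnlg (3.99 ± 0.48) and the decoy receptor Il1r2 (3.66 ± 0.30). Among monocyte and interstitial macrophage markers they were those of Arg1, arginase (5.19 ± 0.31), the proteoglycan Vcan (2.00 ± 0.31), F13a1, a coagulation factor subunit (1.47 ± 0.22), the receptor Trem2 (1.45 ± 0.24) and Cd14, a co-receptor for endotoxin (1.07 ± 0.16). The T cell genes Lef1 (-1.05 ± 0.15), Cd4 (-0.94 ± 0.21) and Tcf7 (-0.65 ± 0.11) fell, and Rrm2, a subunit of ribonucleotide reductase that dividing cells need, rose (1.26 ± 0.25).

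The other marker and reference lists were counted in the same edgeR comparison. There 3.11% of all genes were called and 16.7% had an unadjusted p under 0.05. Of 11 T and B cell markers 3 fell in injured lungs, with a median log2 fold change of -0.63, and of 8 genes of dividing cells 1 rose, with a median of 0.74. No gene was called among the markers of alveolar macrophages (8 tested, median 0.055), endothelium (17, -0.041), alveolar type 1 cells (8, -0.033), alveolar type 2 cells (9, 0.22), airway epithelium (5, -0.12), fibroblasts (6, 0.0087), heart and skeletal muscle (10, -0.67) and red cells (6, -0.32), nor among clock genes (12, -0.68) and glucocorticoid targets (6, -0.44). In that order, 3, 2, 2, 4, 0, 0, 1, 0, 3 and 1 of them had an unadjusted p under 0.05. limma-voom called none of them. DESeq2 called 2 alveolar macrophage, 1 alveolar type 1 and 3 alveolar type 2 markers higher, and 3 clock genes and 1 glucocorticoid target lower.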
